A study of Mus musculus with 64 samples.

Results

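Neuroplastin (Nptn), the 4 IgLON genes Negr1, Lsamp, Ntm and Opcml, and the 4 leucine-rich repeat transmembrane neuronal genes Lrrtm1, Lrrtm2, Lrrtm3 and Lrrtm4 encode adhesion proteins of the neuronal surface. These 9 of the 55401 genes in a table of RNA-seq counts were taken by symbol. They were chosen by their values in prefrontal cortex (PFC) of mice given psilocybin or saline 3 h earlier, so that contrast is described here without a test. All 9 passed the filter on low counts that left 18971 genes. The mice were group-housed, chow-fed C57BL/6J males aged 10 weeks when injected once, into the peritoneum, with psilocybin (3 mg/kg) or saline. Tissue was taken 3 h or 4 weeks later, so that animals of the later harvest were also older. Hypothalamus and PFC, which the sample labels call frontal cortex, came from each of 32 mice, giving 8 groups of 8 libraries (PFC or hypothalamus, psilocybin or saline, 3 h or 4 weeks). Libraries with at least 1000000 counted reads were used, which kept 62 of 64. The shallowest library kept held 8061033 reads, and the 2 left out held 211111 (hypothalamus saline 3 h replicate 2) and 200066 (PFC psilocybin 4 weeks replicate 3). Both regions carried their defining genes. The cortical genes Tbr1, Neurod6 and Slc17a7 were higher in PFC than in hypothalamus by 4.12, 6.31 and 5.08 on the log2 scale, and the summed level of 9 hypothalamic markers such as Hcrt, Avp and Pomc was 0.938 to 14.2 counts scaled to library size (CPM) in PFC and 332 to 2698 in hypothalamus.

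Synaptic adhesion proteins reach across the cleft, hold pre- and postsynaptic membranes together and recruit receptors and release sites. Neuroplastin is an immunoglobulin-domain glycoprotein of the basigin family that also serves as an obligatory subunit of plasma membrane calcium pumps. The IgLONs are anchored to the outer membrane by a lipid tail, bind themselves and each other, and shape neurite outgrowth and synapse number. Lrrtm proteins sit on the postsynaptic side of excitatory synapses, where they bind presynaptic neurexins and, in the case of Lrrtm4, glypicans, and hold AMPA receptors in place. Psilocybin is converted in the body to psilocin, an agonist of serotonin receptors.

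The genes sit apart from one another, except for Ntm and Opcml. In the GRCm38 coordinates of the table, Opcml spans 27790775 to 28925410 on the plus strand of chromosome 9, and Ntm spans 28994750 to 29963129 on the minus strand of the same chromosome, so these IgLONs are close neighbours. Nptn is on chromosome 9 as well (58582240 to 58657955, plus strand), Negr1 on chromosome 3 (156561794 to 157316445, plus) and Lsamp on chromosome 16 (39984361 to 42176295, plus). Lrrtm1 (chromosome 6, 77242689 to 77257791, plus) and Lrrtm3 (chromosome 10, 63928472 to 64090277, minus) each lie inside an alpha-catenin gene on the opposite strand, Ctnna2 and Ctnna3. Lrrtm4 is on chromosome 6 (80018877 to 80810143, plus). Exons of 6 of the 9 shared no base with an exon of another gene in the GENCODE M21 annotation. For Nptn, 5.58% of the exon length overlapped Rec114 (0 to 1.49 CPM in any library), and for Lrrtm2, 1.58% overlapped Ctnna1 (66.6 to 126 CPM), both on the opposite strand. The overlap was 25.1% of the length of Lrrtm4, with the antisense gene Gm4409, which held 0 to 0.131 CPM. The library kit marks strand, but the strand setting of the counting step is not given in full in the sources used here, so reads in these shared stretches could not be assigned to a strand with certainty.

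The promoters of the genes that varied together differed in base composition. RefSeq windows of the GRCm38.p6 build, matched by symbol, were used for 8 of the 9 genes. The 250 bases before the RefSeq start of transcription are printed for Nptn, Negr1 and Opcml. Their levels varied together between libraries (described below with the correlations). Those of Lrrtm1, whose level did not vary with theirs, are printed too. No window of Lrrtm2 was used, although its level varied with those of Nptn, Negr1 and Opcml. Sequences are on the strand of the gene, 5′ to 3′. Capitals mark the E-box CACGTG and the GC box GGGCGG, which is written CCGCCC where it lies on the other strand. They are Nptn on the plus strand at chr9:58581990-58582239, Negr1 on the plus strand at chr3:156561544-156561793, Opcml on the plus strand at chr9:27791049-27791298 and Lrrtm1 on the plus strand at chr6:77242227-77242476. The RefSeq starts need not be those of the gene spans given above, and the Opcml window lies inside the Opcml span, downstream of its first base.
Nptn: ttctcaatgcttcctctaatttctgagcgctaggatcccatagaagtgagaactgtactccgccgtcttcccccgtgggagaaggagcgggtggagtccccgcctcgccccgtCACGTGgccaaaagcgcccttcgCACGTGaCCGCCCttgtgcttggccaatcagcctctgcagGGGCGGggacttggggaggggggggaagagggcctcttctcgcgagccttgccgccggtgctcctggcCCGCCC
Negr1: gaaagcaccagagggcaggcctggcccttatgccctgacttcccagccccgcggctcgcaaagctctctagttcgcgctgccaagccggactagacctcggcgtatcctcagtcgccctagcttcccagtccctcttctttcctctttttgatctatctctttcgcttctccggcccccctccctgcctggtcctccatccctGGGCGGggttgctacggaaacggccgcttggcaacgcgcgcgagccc
Opcml: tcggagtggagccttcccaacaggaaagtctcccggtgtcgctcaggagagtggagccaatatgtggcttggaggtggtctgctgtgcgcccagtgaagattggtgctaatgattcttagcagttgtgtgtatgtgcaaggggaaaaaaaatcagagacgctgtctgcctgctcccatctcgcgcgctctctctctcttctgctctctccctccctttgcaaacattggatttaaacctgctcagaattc
Lrrtm1: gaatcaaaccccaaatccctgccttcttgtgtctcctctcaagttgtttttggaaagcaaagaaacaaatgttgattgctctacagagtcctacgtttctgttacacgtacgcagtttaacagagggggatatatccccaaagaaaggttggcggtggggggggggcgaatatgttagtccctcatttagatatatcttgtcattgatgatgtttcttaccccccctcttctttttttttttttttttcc
The Nptn window held 2 copies of CACGTG, a motif found in 6.02% of 32851 promoter windows of the same length, and 3 GC boxes, a motif found in 32.7%. Negr1 held 1 GC box, while the windows of Opcml and Lrrtm1 held neither motif. The G and C content was 65.2% for Nptn, 63.6% for Negr1, 52% for Opcml and 42% for Lrrtm1, against a median of 52.4% over all windows. Neither the cyclic AMP response element TGACGTCA (1.55% of all windows), the AP-1 site TGANTCA (6.75%) nor the EGR site GCGTGGGCG (0.536%) was present in the windows of these 8 genes, all searched on both strands. These matches describe letters in these windows and not binding.

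Values of the 9 genes in each library are given in the plot of CPM by group. PFC psilocybin 3 h replicate 7 was the lowest of its group for 8 of the 9 genes and the highest for Lrrtm1, with a median deviation over the 9 genes of −0.69 (log2) from the medians of the other libraries of its group. Hypothalamus psilocybin 4 weeks replicate 5 was lowest for 5 genes and highest for 2 (median deviation, taken the same way, −0.41). They also had the lowest quality weights of the 62 libraries in the voom fit, 0.0276 for the hypothalamic and 0.12 for the PFC library, against a median of 1.19. The summed hypothalamic markers of the hypothalamic library were 2698 CPM against 451 to 784 in the rest of its group, its GABAergic markers were 581 CPM against 839 to 1310, its oligodendrocyte markers 10100 CPM against 6094 to 9151, and its oligodendrocyte precursor markers 340.2 CPM against 248 to 318. For both libraries, the sums of excitatory neuron and cortical markers are not reported here. In the PFC library, GABAergic markers summed to 571 CPM against 683 to 775 in the rest of its group, and thalamic markers to 86.3 CPM against 105 to 142. Its oligodendrocyte precursor markers (272 CPM against 170.4 to 224), hypothalamic markers (6.61 against 0.938 to 3.12) and choroid plexus markers (22.5 against 5.61 to 20.4) were above the rest of the group. Results are given with both, and without them where that changed a call or moved a value. This pair was set apart after the values had been seen.

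**Figure D1:**
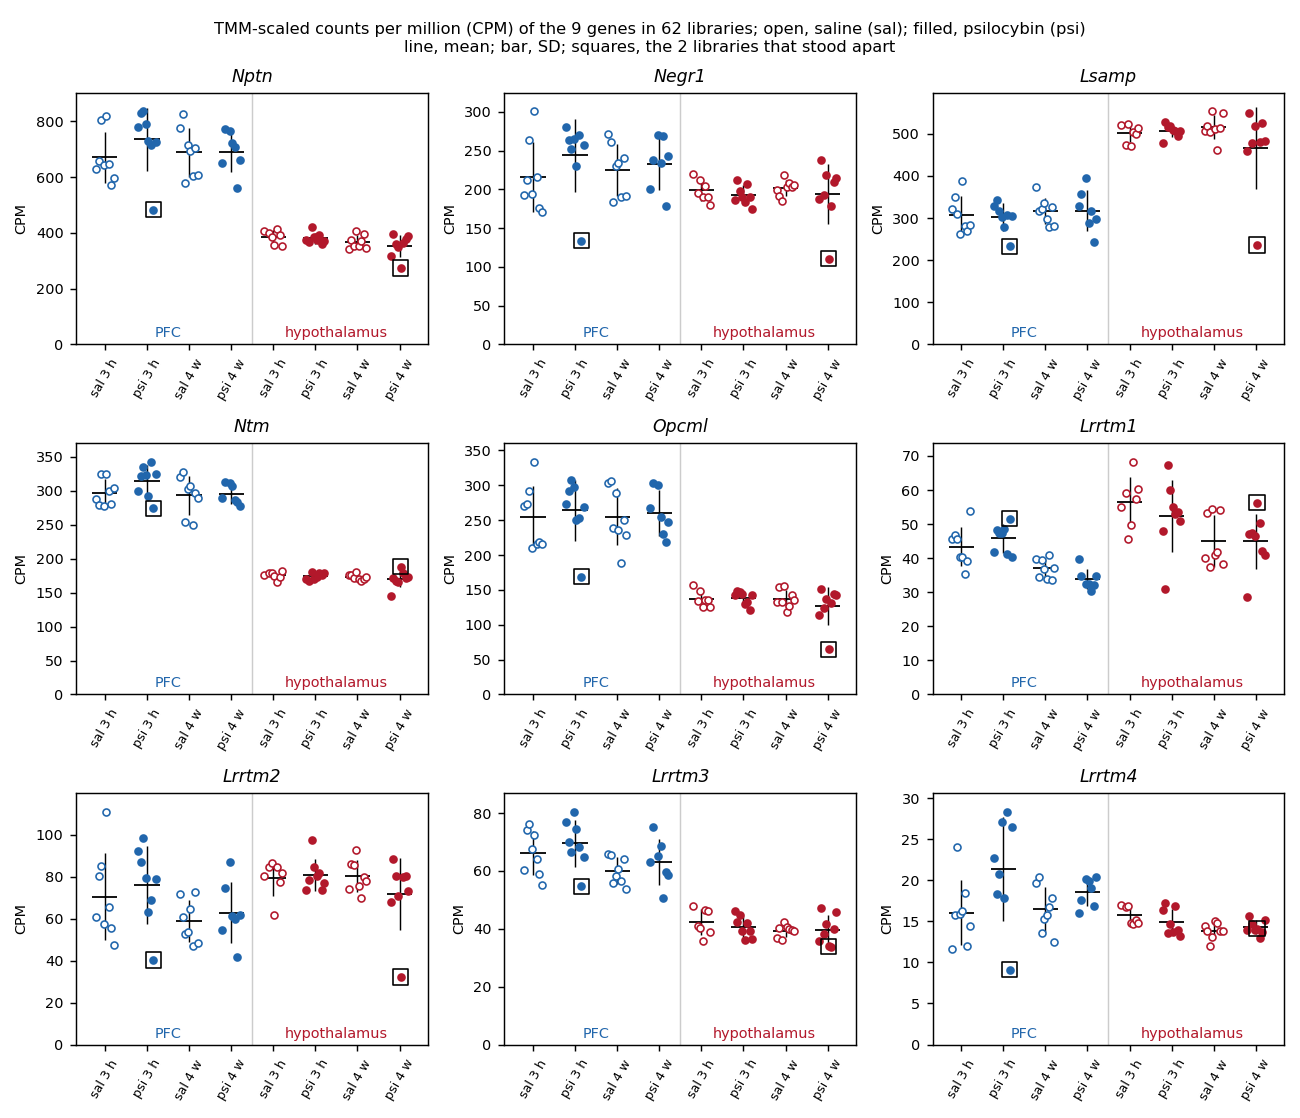
CPM (scaled by the TMM method) of each gene in each of the 62 libraries, by region, treatment and harvest; points are libraries, open for saline and filled for psilocybin, black lines are group means and bars 1 SD, and squares mark the 2 libraries that stood apart. Nptn, Ntm, Opcml and Lrrtm3 form separate bands in PFC (blue) and hypothalamus (red), Lsamp is higher in hypothalamus in most mice, and Lrrtm1 is higher at 3 h than at 4 weeks in both regions.

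Levels between genes were compared per length, as CPM per kilobase of exon (RPKM), with exon lengths from 3033 bases (Lrrtm1) to 17213 bases (Lsamp). Nptn was the most abundant in both regions, and Lrrtm4 the least. In PFC, Nptn had 113 ± 14.8 RPKM (SD, n = 31 libraries), followed by Ntm with 37.2 ± 2.83, Negr1 with 21.8 ± 3.79 and Lsamp with 18.1 ± 2.23. Opcml had 17.8 ± 2.71, Lrrtm3 15.2 ± 1.81, Lrrtm1 13.3 ± 2.05, Lrrtm2 11.2 ± 2.83 and Lrrtm4 2.94 ± 0.729 RPKM. The ranges of Nptn, Ntm and Negr1 did not overlap from one to the next, and Lrrtm4 was below all others in each library, but at each step from Negr1 to Lrrtm2 the ranges of the libraries overlapped. Lsamp exceeded Opcml in 19 of 31 PFC libraries, so this pair could not be ordered.

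The order in the hypothalamus was a different one. Nptn had 60.2 ± 4.81 RPKM (n = 31), and Lsamp came next with 28.9 ± 3.14, ahead of Ntm with 21.4 ± 0.916 and Negr1 with 18.7 ± 2.05. Lrrtm1 had 16.3 ± 3.13 and Lrrtm2 13 ± 1.86, both above Lrrtm3 with 9.52 ± 0.935 and Opcml with 9.29 ± 1.17. Lrrtm4 had 2.39 ± 0.215 RPKM. Only the gaps between Nptn and Lsamp and between Opcml and Lrrtm4 were free of overlap, although Lsamp exceeded Ntm in 30 of 31 libraries. Lrrtm3 exceeded Opcml in 17 of 31, which left that pair without an order.

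Per length, the leading gene of each family changed with region. By mean CPM it did not. Lsamp led the IgLON genes in both regions (311 in PFC, where Ntm had 300, and 497 in hypothalamus). Lrrtm2 led the Lrrtm genes in both (67.2 in PFC, where Lrrtm3 had 64.8, and 78.1 in hypothalamus). The change of lead therefore rests on the exon lengths used. Ntm made up 39.4% ± 2.61 (SD, n = 31) of the summed RPKM of the 4 IgLON genes in PFC and 27.6% ± 3.39 in hypothalamus, while Lsamp made up 19.1% ± 1.39 and 36.8% ± 2.12. Opcml took 18.7% ± 1.27 of the sum in PFC and 11.8% ± 0.875 in hypothalamus. Negr1 held a like share in both, 22.9% ± 2.07 and 23.8% ± 1.38. By share of summed RPKM, Lrrtm3 led the Lrrtm genes in PFC with 35.9% ± 2.3 against 23.2% ± 2.21 in hypothalamus. Lrrtm1 led in hypothalamus with 39.4% ± 5.02 against 31.3% ± 4.6 in PFC. Lrrtm4 took 6.9% ± 1.42 and 5.85% ± 0.755.

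**Figure D2:**
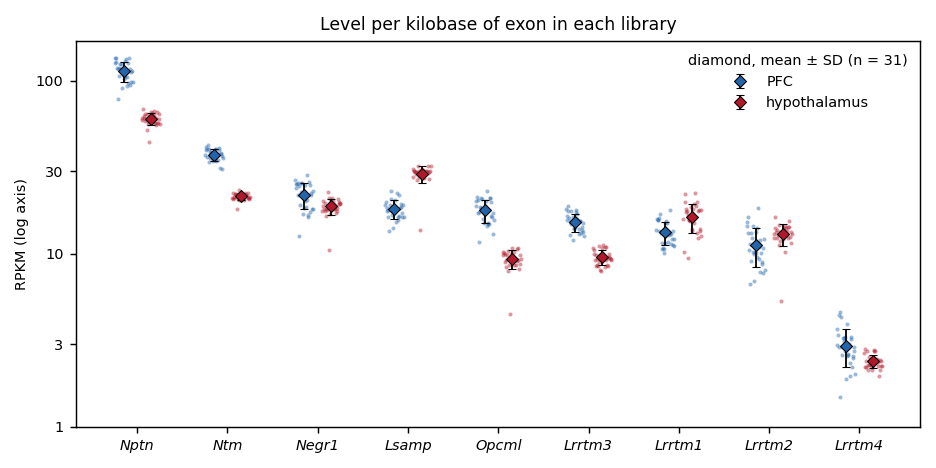
RPKM of the 9 genes on a log axis in 31 PFC (blue) and 31 hypothalamic (red) libraries; small points are libraries, diamonds are means and bars 1 SD, and genes run in the order of their PFC means. The mean of Nptn is 113 RPKM in PFC, that of Lrrtm4 2.94 in PFC and 2.39 in hypothalamus, and Lsamp, Lrrtm1 and Lrrtm2 are the genes with the higher mean in hypothalamus.

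PFC and hypothalamus differed in each of the 9 genes, with 6 higher in PFC and 3 lower. This comparison averages over treatment and harvest, so it does not use the difference between psilocybin and saline from which the genes were chosen. The PFC 3 h libraries of that choice are still part of the PFC mean. All 9 were called by edgeR's quasi-likelihood test at an adjusted p-value under 0.05, but so were 76.2% of all genes tested (39.6% higher and 36.5% lower in PFC), so the count is close to what the table as a whole gives. The median log2 difference was 0.29 over the 9 genes and 0.02 over all genes tested. PFC libraries were extracted in pools C and D and hypothalamic libraries in pools A and B, and therefore pool and region cannot be told apart. As in any bulk tissue, fewer cells of a type and less RNA per cell cannot be told apart either.

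Nptn ranged from 482 to 835 CPM in PFC (median 708) and from 274 to 421 in hypothalamus (median 372). No library of one region reached the range of the other, and PFC was higher in 30 of 30 mice with both libraries. The log2 difference was 0.91 ± 0.04 (SE, adjusted p = 7.34e-30). Opcml, from 169 to 334 CPM in PFC (median 255) and from 64.9 to 157 in hypothalamus (median 135), differed by 0.94 ± 0.05 (adjusted p = 3.41e-25), again in 30 of 30 mice. Its neighbour Ntm, which encodes neurotrimin, had 250 to 343 CPM (median 300.1) against 145 to 189 (median 173), a difference of 0.79 ± 0.03 (adjusted p = 1.98e-36). The coefficient of variation of Ntm was 2.43% to 9.71% within groups. Lrrtm3 had 50.7 to 80.5 CPM (median 64.7) against 33.8 to 48 (median 40.1), a difference of 0.67 ± 0.04 (adjusted p = 1.07e-24), and it too was higher in PFC in 30 of 30 mice. Thus 4 of the 9 genes had regional ranges that did not overlap, which held for 11.3% of all genes tested.

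Lsamp, the limbic system-associated membrane protein, ran the other way. It had 233 to 396 CPM in PFC (median 309) and 236 to 554 in hypothalamus (median 507), and the log2 difference was −0.68 ± 0.04 (adjusted p = 3.76e-21). Hypothalamus was higher in 29 of 30 mice, the exception being the mouse of the hypothalamic library that stood apart, whose 236 CPM was the lowest hypothalamic value. Lrrtm1 was lower in PFC by a log2 difference of −0.31 ± 0.05 (adjusted p = 3.41e-07) and in 27 of 30 mice, with 30.5 to 53.9 CPM (median 39.8) against 28.5 to 68.4 (median 50.4). Lrrtm2 was lower in PFC in 22 of 30 mice, with 40.3 to 111 CPM against 32.2 to 97.6 and a difference of −0.23 ± 0.07 (adjusted p = 0.00336). Lrrtm2 lies on chromosome 18 (35209003 to 35215024, minus strand), inside the alpha-catenin gene Ctnna1. For Lrrtm1 and Lrrtm2 the ranges of the regions overlapped over most of their length.

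Negr1 and Lrrtm4 showed small regional differences. Negr1, neuronal growth regulator 1, had 134 to 301 CPM in PFC and 111 to 238 in hypothalamus, was higher in PFC in 20 of 30 mice and differed by 0.22 ± 0.06 (log2, adjusted p = 0.000369). Lrrtm4 had 9.14 to 28.4 CPM against 12 to 17.2, was higher in PFC in 24 of 30 mice and differed by 0.29 ± 0.06 (adjusted p = 3.88e-05). The lowest PFC value of each was that of psilocybin 3 h replicate 7. With the saline groups at 4 weeks alone the calls were lost, at a difference of 0.16 for Negr1 (adjusted p = 0.226) and 0.23 for Lrrtm4 (adjusted p = 0.104). Within each of the 4 conditions the sign of the regional difference was the same for every one of the 9 genes. The difference ran from 0.8 to 0.98 for Nptn, from −0.75 to −0.54 for Lsamp, from 0.11 to 0.34 for Negr1 and from 0.03 to 0.52 for Lrrtm4. For Negr1 and Lrrtm4 the highest value was at 3 h after psilocybin and the lowest at 3 h after saline. Both of these conditions hold PFC libraries by whose values the genes were chosen, so the values by condition are a description.

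Binding partners and other adhesion families also differed between regions. Of 50 such genes, 36 were called, 24 higher and 12 lower in PFC, a share of 72% that is below the 76.2% of all genes. Those with the smallest p-values were Cbln1, a secreted neurexin ligand, at a log2 difference of −4.15 ± 0.11 (adjusted p = 4.78e-40), Slitrk6, a leucine-rich repeat receptor, at −5.64 ± 0.15 (adjusted p = 2.1e-39), and Atp2b2, a plasma membrane calcium pump and thus a partner of neuroplastin, at 1.51 ± 0.06 (adjusted p = 2.25e-32). Iglon5, the remaining member of the IgLON family, was lower in PFC by −0.13 ± 0.06 (adjusted p = 0.0378). Of the other 10 genes of the basigin family and neuroplastin partners, 4 were higher and 3 lower in PFC. Among neurexins and neuroligins, 4 of 6 genes were called, all higher in PFC, again no larger a share than over all genes. The make-up of the tissue moved with region. Among excitatory neuron markers, Slc17a7, Camk2a, Neurod6 and Tbr1 were higher in PFC by 3.25 to 6.31 (log2), and Slc17a6, a second vesicular glutamate transporter, was lower by −4.32 ± 0.08. Of the 5 GABAergic markers, 2 were higher and 2 lower in PFC. Together they summed to 571 to 884 CPM in PFC and 581 to 1310 in hypothalamus, and the 6 oligodendrocyte markers to 2303 to 6741 and 6065 to 10938. All 6 microglial markers (384 to 697 CPM in PFC and 244 to 373 in hypothalamus) and all 5 endothelial markers (116 to 233 and 69.5 to 190) were higher in PFC, and all 5 thalamic markers (86.3 to 152 and 425 to 915) were lower. No marker of these lists was at 0 in all libraries of a region, and their part in the regional differences was not tested.

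**Figure D3:**
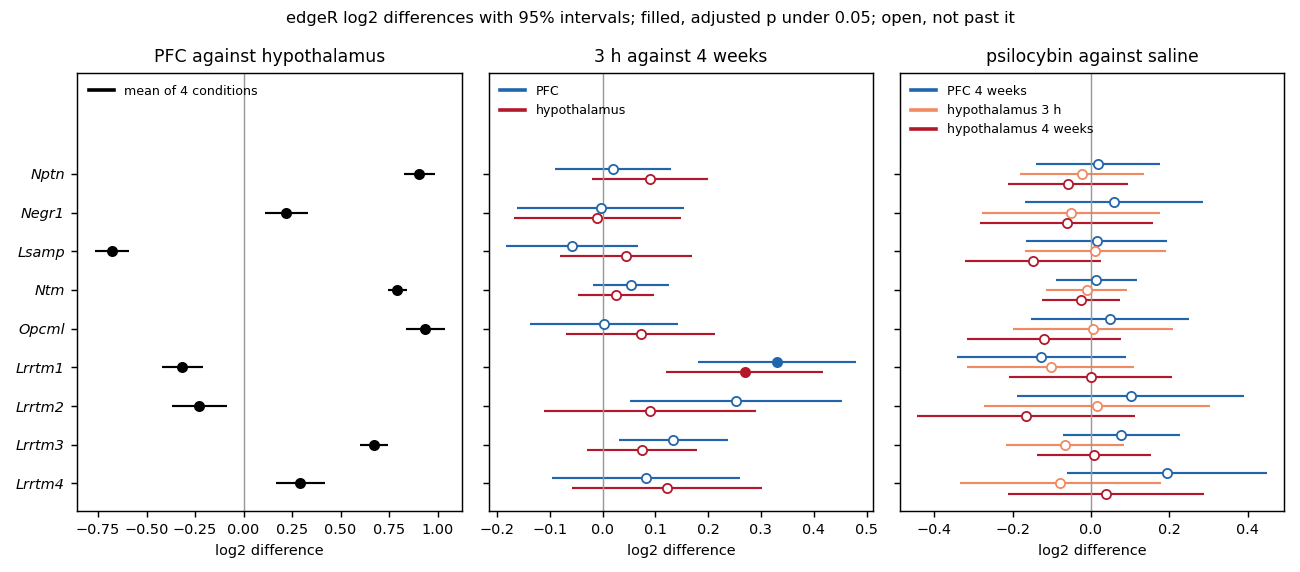
edgeR log2 differences (points) with 95% confidence intervals (lines) for the 9 genes, in PFC against hypothalamus (left), 3 h against 4 weeks in each region (middle) and psilocybin against saline in the contrasts that were tested (right); filled points passed an adjusted p-value of 0.05 and open points did not. All 9 points are filled on the left, Lrrtm1 is the filled gene in the middle panel in both regions, and all points on the right are open.

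Of the 9 genes, Lrrtm1 was the one called between harvests, and it was higher at 3 h than at 4 weeks in both regions. The harvests differ in time since injection and in age, which cannot be told apart. In PFC the saline group had 35.3 to 53.9 CPM at 3 h (median 43, n = 8) and 33.7 to 41.1 at 4 weeks (median 36.9, n = 8). The psilocybin group had 40.2 to 51.6 CPM at 3 h (median 47.3, n = 8) and 30.5 to 39.7 at 4 weeks (median 32.6, n = 7). The psilocybin groups did not overlap, which held for 0.965% of all genes tested, while the saline groups did (0.432% of all genes did not). The psilocybin 3 h and saline 3 h libraries of PFC are among those by whose values the genes were chosen, so the gap between the psilocybin groups is a description. Averaged over treatments, the log2 difference in PFC was 0.33 ± 0.07 (SE, 95% interval 0.18 to 0.48, adjusted p = 0.00114). In hypothalamus the saline group had 45.5 to 68.4 CPM at 3 h (median 57.5, n = 7) and 37.4 to 54.5 at 4 weeks (median 41.4, n = 8), and the psilocybin group 30.9 to 67.5 (median 53.4, n = 8) and 28.5 to 56.2 (median 46.9, n = 8). Both pairs of groups overlapped (0.859% of all genes did not in saline and 0.348% in psilocybin), and the averaged difference was 0.27 ± 0.07 (95% interval 0.12 to 0.42, adjusted p = 0.0229).

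The Lrrtm1 difference had the same sign in each part of the design. It was 0.31 in pool C and 0.34 in pool D of the PFC libraries, and 0.23 in pool A and 0.30 in pool B of the hypothalamic ones. By treatment it was 0.23 ± 0.1 (saline) and 0.43 ± 0.11 (psilocybin) in PFC, and 0.32 ± 0.11 and 0.22 ± 0.1 in hypothalamus, and the difference between treatments was not tested. The PFC values by treatment use libraries by whose values the genes were chosen, so they are a description. Between mice of the same cage and treatment, the 3 h animal was higher in 14 of 15 pairs in PFC and 12 of 15 in hypothalamus. The difference between the regions in this change was 0.06 ± 0.11 (95% interval −0.15 to 0.27, adjusted p = 0.804). In PFC the call held with each library left out in turn. In hypothalamus it was lost without psilocybin 3 h replicate 3, at 0.23 (adjusted p = 0.0616), and with the saline groups alone neither region gave a call (adjusted p = 0.218 in PFC and 0.215 in hypothalamus).

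**Figure D4:**
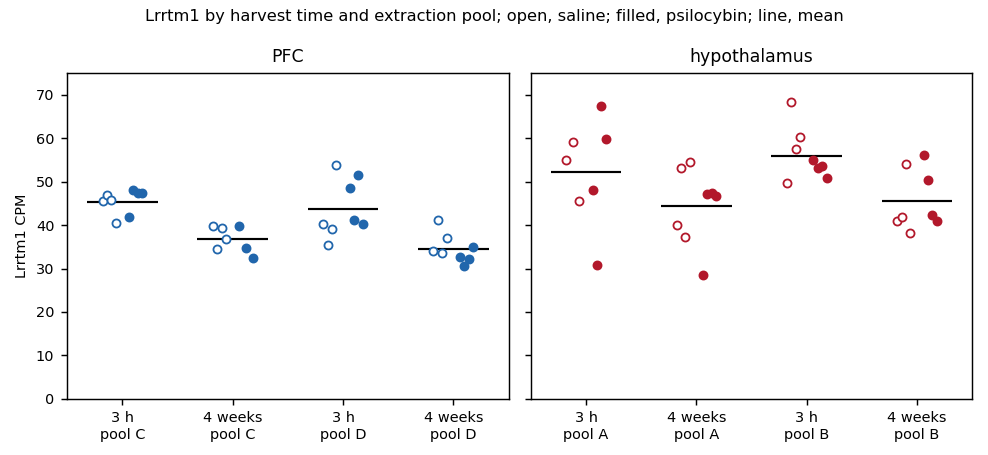
CPM of Lrrtm1 in each library by harvest and extraction pool, for PFC (left) and hypothalamus (right); open points are saline, filled points are psilocybin and black lines are means of all libraries at that harvest in that pool. In each of the 4 pools the mean at 3 h lies above the mean at 4 weeks, with log2 differences from 0.23 to 0.34.

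The other genes moved less between harvests. Called were 1 of the 9 genes in each region, against 17.1% of all genes in PFC (7.92% higher at 3 h) and 3.99% in hypothalamus (2.42% higher), so the PFC count is no larger than the table as a whole gives. In PFC, Lrrtm2 differed by 0.25 ± 0.1 (adjusted p = 0.0724) and Lrrtm3 by 0.13 ± 0.05 (adjusted p = 0.0648), both short of the threshold. Without the libraries that stood apart both passed it, at 0.30 (adjusted p = 0.00589) and 0.15 (adjusted p = 0.0164). Leaving out 1 of 8 libraries also brought Lrrtm2, Lrrtm3 or both past it, namely hypothalamus psilocybin 4 weeks replicate 5, PFC psilocybin 3 h replicate 7, PFC saline 3 h replicates 1 and 8, PFC psilocybin 4 weeks replicates 2, 4 and 5, and PFC saline 4 weeks replicate 7, with Lrrtm2 between 0.17 and 0.30 and Lrrtm3 between 0.12 and 0.15 over all libraries left out. In the 3 h saline group of PFC, Lrrtm2 ran from 47.4 to 111 CPM, with replicate 5 at the top, and without that library its difference was 0.17 (adjusted p = 0.184). The voom fit with quality weights called Lrrtm2 as well as Lrrtm1, where 25.8% of all genes were called. For Nptn and the 4 IgLON genes the PFC differences lay between −0.06 and 0.05, with 95% limits from −0.18 to 0.15, and in hypothalamus the 8 genes other than Lrrtm1 lay between −0.01 and 0.12. None of the 9 genes was called for a difference between regions in its change with harvest, except Lrrtm2 after correction for GC and length (0.24, adjusted p = 0.0495). Without that correction edgeR called 0 of the 9 (0 with an unadjusted p-value under 0.05 in edgeR, against 16.1% of all genes at that level and 1.06% called, and 0 called by DESeq2, which called 2.32% of all genes, or by voom, which called 2.8%).

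Among the 50 other adhesion genes, 6 were called between harvests in PFC, 4 higher and 2 lower at 3 h, a share of 12% that is below the 17.1% of all genes. Lrfn2, a postsynaptic adhesion protein of the leucine-rich repeat class like the Lrrtm family, was higher by 0.51 ± 0.07 (adjusted p = 5.85e-07), Cbln4, a secreted cerebellin, by 0.34 ± 0.09 (adjusted p = 0.00595), and Fgfr1, a receptor that neuroplastin can engage, by 0.21 ± 0.07 (adjusted p = 0.0223). In hypothalamus 0 of the 50 were called by edgeR (4 with an unadjusted p-value under 0.05), and Lrfn2 was at 0.2 ± 0.07 (adjusted p = 0.12). Glial markers moved with harvest in PFC, where 4 of 6 astrocyte markers and 3 of 6 microglial markers were higher at 3 h. The astrocyte sum was 2320 to 4647 CPM at 3 h and 2164 to 3906 at 4 weeks, and the microglial sum 384 to 697 and 386 to 603, and their part in the PFC result was not tested. The excitatory neuron marker Camk2a and the endothelial marker Ly6c1 were also higher at 3 h in PFC, by 0.26 ± 0.07 and 0.42 ± 0.13, and the hypothalamic markers Nkx2-1 and Sim1 were lower, by −1.54 ± 0.46 and −2.16 ± 0.74. In hypothalamus 0 of the 12 astrocyte and microglial markers were called by edgeR, while Ly6c1 (0.66 ± 0.13) and the oligodendrocyte marker Mobp (0.38 ± 0.11) were higher at 3 h, and their part in the hypothalamic result was not tested either.

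Psilocybin did not bring any of the 9 genes past the threshold in the contrasts that the choice of genes left free, which were PFC at 4 weeks, hypothalamus at 3 h and at 4 weeks, and the difference between the hypothalamic effects. In each, edgeR called 0 of the 9 genes, and 0 had an unadjusted p-value under 0.05. DESeq2 and voom with quality weights also called 0. The share of all genes called by edgeR was 0% in each, with 456, 337, 1823 and 999 of the 18971 genes at an unadjusted p-value under 0.05, and DESeq2 called 19 genes of the whole table (0.1%) in PFC at 4 weeks and 13 (0.0685%) in hypothalamus at 4 weeks. These misses do not show that the groups were equal. The intervals bound what could have been there.

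In PFC at 4 weeks, Lrrtm4 had the largest difference of the 9, with 16 to 20.4 CPM after psilocybin (median 19.1, n = 7) and 12.5 to 20.3 after saline (median 16.3, n = 8). The groups overlapped, and the log2 difference was 0.19 ± 0.13 (95% interval −0.06 to 0.45). Lrrtm1 was the gene with the lowest difference there, −0.13 ± 0.11 (95% interval −0.34 to 0.09), and was lower after psilocybin in 6 of 7 cage pairs. Nptn differed by 0.02 ± 0.08 (95% interval −0.14 to 0.18) and Negr1 by 0.06 ± 0.11 (95% interval −0.17 to 0.29). Psilocybin was higher in 4 of 7 cage pairs for Lrrtm4, 4 of 7 for Nptn and 3 of 7 for Negr1. The counts of cage pairs were not tested.

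In hypothalamus at 3 h, the 9 differences lay between −0.1 (Lrrtm1) and 0.02 (Lrrtm2). The Nptn groups overlapped, at 359 to 421 CPM after psilocybin (median 374, n = 8) and 352 to 413 after saline (median 391, n = 7), with a log2 difference of −0.02 ± 0.08 (95% interval −0.18 to 0.13). At 4 weeks, Lrrtm2 (−0.17 ± 0.14), Lsamp (−0.15 ± 0.09) and Opcml (−0.12 ± 0.1) had the lowest values. Lsamp had 236 to 549 CPM after psilocybin (median 482, n = 8) and 463 to 554 after saline (median 513, n = 8), and the next lowest psilocybin library after replicate 5 had 459. Without the libraries that stood apart, these differences were −0.06 for Lrrtm2, −0.05 for Lsamp and −0.02 for Opcml. The difference between the hypothalamic effects at 3 h and 4 weeks ran from −0.12 (Lrrtm4) to 0.18 (Lrrtm2), with 95% limits from −0.47 to 0.58. Without the libraries that stood apart it ran from −0.11 (Lrrtm4) to 0.07 (Lrrtm2). Of the 50 other adhesion genes, 0 were called by edgeR in any of these contrasts, and at most 3 had an unadjusted p-value under 0.05.

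The contrast from which the genes were chosen, psilocybin against saline in PFC at 3 h, is given as values alone. For Lrrtm4 the psilocybin group had 9.14 to 28.4 CPM (median 21.7, n = 8) and the saline group 11.6 to 24.1 (median 15.9, n = 8). The lowest psilocybin value was that of replicate 7, and the next was 17.9. Nptn had 482 to 835 CPM after psilocybin (median 753) and 570 to 817 after saline (median 646), and Negr1 had 134 to 280 (median 260) and 171 to 301 (median 203). In each of these genes replicate 7 lay below all saline libraries, while the other psilocybin libraries lay in the middle and upper part of the joint range.

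In the edgeR fit the log2 differences were 0.41 for Lrrtm4, 0.17 for Negr1, 0.13 for Nptn, 0.1 for Lrrtm2, 0.08 for Ntm, 0.08 for Lrrtm1, 0.07 for Lrrtm3, 0.05 for Opcml and −0.03 for Lsamp. The values differed between fits. Without the libraries that stood apart the differences were 0.52 for Lrrtm4, 0.26 for Negr1 and 0.19 for Nptn, and without PFC psilocybin 3 h replicate 7 alone they were again 0.52, 0.26 and 0.19. Of the other genes, Lrrtm2 went to 0.19, Lrrtm3 and Opcml to 0.11, Ntm to 0.1, Lrrtm1 to 0.04 and Lsamp to 0.00 without the libraries that stood apart. In voom with quality weights, which gave low weights to PFC saline 3 h replicates 3, 4 and 5 (0.275, 0.323 and 0.286) as well as to replicate 7, they were 0.61, 0.32 and 0.25. They also differed between the pools. In pool C the difference was 0.25 for Nptn, 0.31 for Negr1 and 0.35 for Lrrtm2, and in pool D it was 0.00, 0.03 and −0.12, whereas Lrrtm4 had 0.43 and 0.31. After correction of each library for GC and length, Nptn was at 0.02 and Lrrtm4 at 0.25. Lrrtm1 lay between 0.04 and 0.12 in these fits. Side by side with the other psilocybin contrasts, Lrrtm4 had 0.41 in PFC at 3 h, 0.19 in PFC at 4 weeks, −0.08 in hypothalamus at 3 h and 0.04 in hypothalamus at 4 weeks, and Nptn 0.13, 0.02, −0.02 and −0.06.

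Within groups, the 9 genes varied together from library to library, with the exception of Lrrtm1. After removal of the group and pool means, 30 of the 36 pairs of genes had a positive correlation of log2 CPM over the 62 libraries, with a median Pearson r of 0.48. The highest values were between Nptn and Negr1 (0.88), Lsamp and Opcml (0.85) and Negr1 and Lrrtm2 (0.84). Without the libraries that stood apart, 34 of 36 pairs were positive, the median was 0.46, and the same pairs had 0.81, 0.71 and 0.73. Lrrtm1 had between −0.3 and 0.1 with the other genes over 62 libraries. Lrrtm4, which follows Negr1 most closely of the 8 (0.67 and 0.64 in turn), had 0.21 and 0.14 with Lsamp. The points share library, depth and RNA, and the values are a description across libraries with no test.

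**Figure D5:**
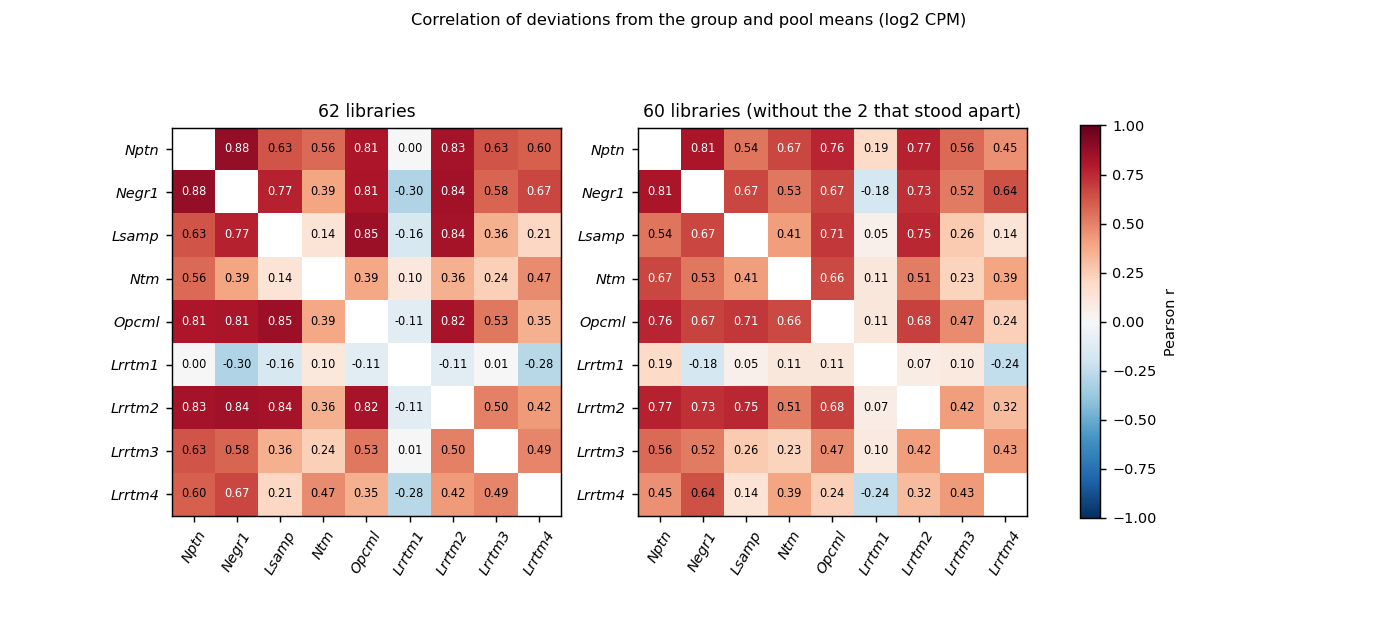
Pearson r between the 9 genes, from log2 CPM after removal of group and pool means, over 62 libraries (left) and over 60 without the libraries that stood apart (right); red is positive and blue negative. Nptn, Negr1, Lsamp, Opcml and Lrrtm2 form a block of high values, Lrrtm1 lies between −0.3 and 0.19 with the rest, and the block is paler on the right, where Nptn and Negr1 go from 0.88 to 0.81.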

How the data were processed

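Hypothalamus and PFC of 32 mice were profiled by poly(A) RNA-seq with a stranded kit. The authors demultiplexed reads with bcl2fastq 2.20.0, aligned them to GRCm38 with STAR 2.7.2b and deposited raw gene counts from featureCounts 1.6.2, whose strand setting is not given in full in the sources used here. Libraries under 1000000 counts (2 of 64) were left out, and those used held 8061033 to 70361839 counts. The paper reports that a further library was excluded for strong enrichment of wound healing and immune genes. It does not name that library, which may be among those used here. Among 210 pairs of libraries of one group, the lowest chi-square per degree of freedom was 3.85, so none was counted as a duplicate.

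Samples were grouped by region, treatment and harvest as the labels give them. In R 4.3.3, edgeR 4.0.16 (TMM, filterByExpr with a minimum count of 10, robust quasi-likelihood) was fitted to all 62 libraries with group and extraction pool, p-values were adjusted by Benjamini-Hochberg over 18971 genes, and an adjusted p under 0.05 was called. SE values are the log2 difference over the square root of F. The fit held no term for the animal, so PFC and hypothalamus of the same mouse counted as independent libraries. The voom alternative held the animal as a block (correlation 0.0282), and the replicate block was set within each region. RPKM is TMM-scaled CPM per kilobase of the exon length in the table. The script was tested on simulated data. Alternatives were DESeq2 1.42.0 and its size factors, voom with limma 3.58.1, no filter, no pool, a replicate block, saline groups only and each library left out. Leaving out a pair of libraries and a correction for GC and length, alone and with the block, were added after seeing the data.

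The members and gene lists were chosen with earlier results of these data known. The text names the 9 members, up to 3 other adhesion genes with the smallest p in each comparison, and the 3 genes most correlated with each of Nptn, Negr1 and Lrrtm4 among those with at least 10 CPM. Some of these genes and of the marker genes are not reported here. The fifth IgLON and genes in counts of a family are named besides. Replicate numbers are cage numbers, so they pair the samples. The mean correlation of same-cage deviations was 0.07 in PFC and 0.08 in hypothalamus, and −0.04 and −0.02 after removal of the pool.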

Additional observations from a re-analysis of the deposited data

Results flagged for a closer look

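Of 72 groups of 7 or 8 libraries tested for a value far from the rest, 9 held one by Dixon's criterion, which chance passes in about 5% of groups. In PFC psilocybin 3 h, replicate 7 was far below its group for Nptn (482 CPM, next 716), Negr1 (134 CPM, next 230) and Opcml (169 CPM, next 251). In hypothalamus psilocybin 4 weeks, replicate 5 was far below for Negr1 (111 CPM, next 178), Lsamp (236 CPM, next 459), Opcml (64.9 CPM, next 115) and Lrrtm2 (32.2 CPM, next 67.9). These are the libraries that stood apart. Lrrtm2 was also far above its group in hypothalamus psilocybin 3 h replicate 3 (97.6 CPM, next 84.6) and far below in hypothalamus saline 3 h replicate 5 (61.5 CPM, next 77.5).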

How the results depend on the processing

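The 9 regional calls held under each alternative that kept all groups, and with each library left out (9 to 9 called). With saline at 4 weeks alone 7 were called. Between harvests in PFC, 1 of the 9 was called, against 2 with voom, 0 with the saline groups only, 3 without the libraries that stood apart, 3 with the correction for GC and length, and 1 to 3 with a library left out. In hypothalamus 1 was called, against 0 with the saline groups only and 0 to 1 with a library left out. The regional difference in the change with harvest gave 0, and 1 (Lrrtm2, 0.24, adjusted p = 0.0495) with the correction for GC and length. The psilocybin contrasts tested gave 0 under each alternative run, 0 to 0 with a library left out. The saline-only settings compare fewer samples, the saline groups alone, within the fit to all 62 libraries. The cause of these shifts was not tested. With the replicate block (cage) in place of the pool, 9 were called between regions, 1 between harvests in each region and 0 in the rest, so this pairing changed no call. With the block and the correction together, 3 were called between harvests in PFC.

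Over all genes, calls between harvests numbered 3252 in PFC (4899 with voom, 4952 without the libraries that stood apart, 896 in saline only) and 757 in hypothalamus (2785, 1170 and 130, and 1219 with the correction). The regional difference gave 202 (440 with DESeq2, 531 with voom, 309 without the libraries that stood apart, 401 with the correction, 386 with the correction and the block, 64 without the pool, 61 without the filter). Psilocybin in PFC at 4 weeks gave 0 (19 with DESeq2, 1 without the pool), and in hypothalamus at 4 weeks 0 (13 with DESeq2). Of 756 values of a gene under an alternative, 81 had the opposite sign, all where the main log2 difference was at most 0.12 in size. Depth limited Lrrtm4 most, with as few as 108 reads in a library.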

Other observations

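The spread within groups differed between genes and regions. The coefficient of variation of Nptn was 10.7% to 15.3% in the 4 PFC groups and 5.12% to 11.4% in the hypothalamic ones, and without the libraries that stood apart 6.52% to 13.6% and 5.12% to 7.27%. That of Lrrtm2 was 17.2% to 29.3% and 9.35% to 24%, and without those libraries 15.4% to 29.3% and 9.12% to 10.7%. Lrrtm1 went the other way, with 7.68% to 13.3% in PFC and 13.2% to 20.1% in hypothalamus, the same with and without them.

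Genes whose level followed a member most closely were ranked among 10505 genes by Pearson r over the 62 libraries after removal of group and pool means. For Nptn the 3 highest included Fgf12, an intracellular fibroblast growth factor that binds sodium channels (0.92), and Ppp3cb, a catalytic subunit of calcineurin (0.92). Without the libraries that stood apart these had 0.87 and 0.9. For Negr1 they included Tmem106b, a lysosomal membrane protein (0.95), and Gpm6a, a neuronal membrane glycoprotein (0.94), with 0.9 and 0.88 in the smaller set. For Lrrtm4 they were Ap1s2, a clathrin adaptor subunit (0.84), Capza2, an actin capping protein (0.81), and Ankrd13c (0.81), with 0.72, 0.7 and 0.7. The ranking itself moved in the smaller set, where the 3 highest for Lrrtm4 were all other genes (Actr3 0.74, 1110004F10Rik 0.73 and 1110059G10Rik 0.73), 2 of the 3 for Nptn were others (Ppp3ca 0.89 and Ppp3r1 0.89), and 2 of the 3 for Negr1 were others. The values describe libraries that share depth and RNA, and were not tested.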
